A study of Mus musculus with 14 samples.

Results

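The genes of cholesterol synthesis, of its control by SREBP and of LXR-driven lipid export were followed in mouse bone marrow derived macrophages. The set was given as 34 named genes: 17 enzymes of cholesterol synthesis, 6 genes of SREBP control and sterol transport, 3 of fatty acid synthesis, 7 of LXR signalling and lipid export, and Fabp4. Of these, 33 were found among the 21444 genes of the mRNA tables, and all 33 passed the filter on low counts that left 14019 genes for testing. Hmgcs1 was not analysed here at the mRNA level.

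Marrow from C57BL/6 femur and tibia had been grown with 20% L929 medium, for 6 days by the growth protocol and 7 days by the series text. The samples called WT had the genotype ELAVL1f/f, a loxP-flanked gene with no Cre. Those called KO were ELAVL1f/f, LysM-Cre, in which the Cre is driven from the Lyz2 locus of myeloid cells. ELAVL1 (HuR) is an RNA-binding protein, and the series asks how it bears on miRNA binding. There were 4 mRNA libraries per genotype (WT 1 to 4, KO 1 to 4), small RNA libraries of WT 1 and 2 and KO 3 and 4, and, for AGO2 PAR-CLIP, a single library of either genotype. The series text calls the mRNA samples biological repeats but ties no number to an animal. What the p-values weigh is the spread among the samples given, which may be partly technical. Only the KO libraries carry the Cre, so a Cre effect and loss of ELAVL1 cannot be told apart.

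Cells make cholesterol from acetyl-CoA through mevalonate, farnesyl diphosphate, squalene and lanosterol. When membrane sterol is low, SCAP escorts the SREBP transcription factors from the endoplasmic reticulum for cleavage, and the cleaved factors switch on the synthesis genes, while INSIG proteins hold SCAP back when sterol is plentiful. Sterol excess produces oxysterols that activate the nuclear receptors LXRα (Nr1h3) and LXRβ (Nr1h2), which raise the exporters Abca1 and Abcg1, the lipid carrier Apoe and the ubiquitin ligase Mylip. Macrophages take up much lipid from dying cells and lipoproteins and rely on this export arm.

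The labels were checked before the results. Elavl1 itself was not lower in KO, at 63.5 ± 2.00 CPM (counts-per-million, SD, n = 4) in WT and 69.5 ± 6.13 CPM in KO. These counts cover the whole gene and do not show whether the loxP-flanked part was lost, so WT and KO below are the labels' terms. Lyz2 stood at 12428 ± 2555 CPM in WT and 5067 ± 1004 CPM in KO. The macrophage markers Cd68, Csf1r and Adgre1 were at 752 CPM or more in every library. Total counts ran from 8160789 to 25030262. Libraries of numbers 1 and 2 stood apart from those of numbers 3 and 4, and the Y-linked Ddx3y was at 24.3 to 38.1 CPM in the former and at most 0.0860 CPM in the latter.

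Apoe was the most abundant of the 33 genes by a wide margin. Compared per transcript length with the deposited RPKM values, its level was 10987 ± 3258 RPKM in WT and 12997 ± 2540 RPKM in KO (SD, n = 4). Fabp4 and Abcg1 followed at means over the 8 libraries of 91.9 and 84.4 RPKM, and Scd2 and Abca1 at 59.5 and 34.3 RPKM. Fabp4 ranged from 17.9 to 203 RPKM over the libraries and Abcg1 from 64.8 to 103 RPKM, so their order does not hold beyond the spread. Ebp, a sterol isomerase, had the highest mean RPKM of the synthesis enzymes at 27.1, and Hsd17b7, a sterol ketone reductase, the lowest of all 33 at 1.24. Between Mylip at 28.1 RPKM and Mvd at 17.7 RPKM, neighbouring genes overlapped in range.

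**Figure D1:**
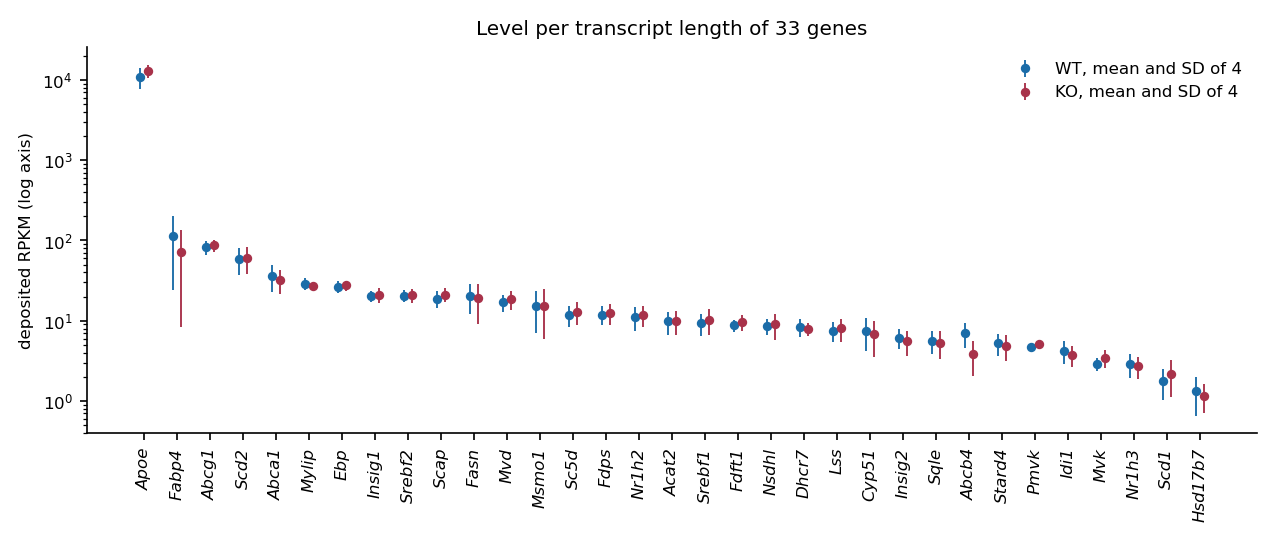
Deposited RPKM (vertical log axis) of 33 genes ordered by their mean, with points and bars for the mean and SD of 4 libraries in WT (blue) and KO (red). Apoe lies far above all others in both genotypes, and Hsd17b7 is lowest.

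Does the level of these genes differ between KO and WT? With genotype alone in the edgeR quasi-likelihood model, 0 of 33 members and 0 of 14019 genes passed a Benjamini-Hochberg adjusted p of 0.05 (0.0% of genes called, 81 genes at an unadjusted p under that value). DESeq2 called 0 members and 3 genes in that design (0.0214% of genes). Libraries of equal number deviated together, at correlations of 0.762 to 0.843. Within numbers 3 and 4, unequal numbers did so as well (WT 4 and KO 3 at 0.850, WT 3 and KO 4 at 0.790). The pairing there is thus not settled by these values. The replicate number was also fitted as a block, which sets each KO library against the WT library of its number. In that fit 1 of 33 members passed, Abcb4, where 0.0357% of all genes were called in either direction and 0.0285% were called lower in KO. An unadjusted p under 0.05 was reached by 3 of 33 members (Abcb4, Fabp4 and Scap), against 9.42% of all genes. The members' median log2 fold change was 0.05 and that of all genes tested was 0.00.

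Abcb4 encodes a flippase that moves phosphatidylcholine across the membrane and is best known for loading bile with phospholipid. Its level was 22.6, 30.1, 44.9 and 46.3 CPM in WT 1 to 4 and 12.5, 13.4, 21.7 and 30.9 CPM in KO 1 to 4. Every KO library lay below the WT library of its number, while the genotypes overlapped, since KO 4 was above WT 1 and WT 2. The log2 differences within numbers 1 to 4 were -0.85, -1.17, -1.05 and -0.58. With the replicate block Abcb4 fell by 0.91 on the log2 scale (SE 0.11, edgeR adjusted p = 0.0204), and without it the estimate was -0.87 (SE 0.34, adjusted p = 0.9999). The call ended without number 1 (-0.92, adjusted p = 0.115) and held without number 2, 3 or 4 (adjusted p = 0.0312, 0.0395 and 0.0179). With a term for the number set (1 and 2 against 3 and 4) in place of the block, Abcb4 was not called (-0.90, SE 0.15, edgeR adjusted p = 0.811), nor was any other member. Fitted alone, without a block, numbers 1 and 2 gave -1.02 (edgeR adjusted p = 1.0) and numbers 3 and 4 gave -0.80 (edgeR adjusted p = 0.175). Abcb1a and Abcb1b, transporters close in sequence to Abcb4, stood at 7.73 ± 2.42 and 29.0 ± 10.3 CPM in WT and 6.77 ± 2.80 and 25.7 ± 11.4 CPM in KO. Both were looked up after the Abcb4 values were seen, and how the authors counted reads shared by near copies is not given in the sources used here.

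Fabp4, a carrier of fatty acids made by adipocytes and macrophages and a target of PPARγ, stood just outside the threshold. It was measured at 20.1, 35.3, 146 and 125 CPM in WT 1 to 4 and at 13.5, 19.6, 111 and 61.8 CPM in KO 1 to 4. KO was below WT within each number, but both genotypes spanned the same wide range, which followed the number sets. The blocked log2 fold change of KO over WT was -0.71 with an SE of 0.11 (edgeR adjusted p = 0.0509), and blocked DESeq2 called it (-0.71, adjusted p = 2.144e-05), as it did Abcb4, among 0.585% of all genes. With blocked edgeR it was called without number 3 (adjusted p = 0.0172) and was not without number 1, 2 or 4 (adjusted p = 0.164, 0.0721 and 0.315). Fitted alone, without a block, numbers 1 and 2 gave -0.73 and numbers 3 and 4 gave -0.66, and neither passed (edgeR adjusted p = 1.0 and 0.446). Of the adipocyte markers, 5 of 6 were in the tables and all 5 were under 1 CPM in every library, with a summed level of 0.0 to 0.373 CPM in WT and 0.0 to 0.301 CPM in KO.

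**Figure D2:**
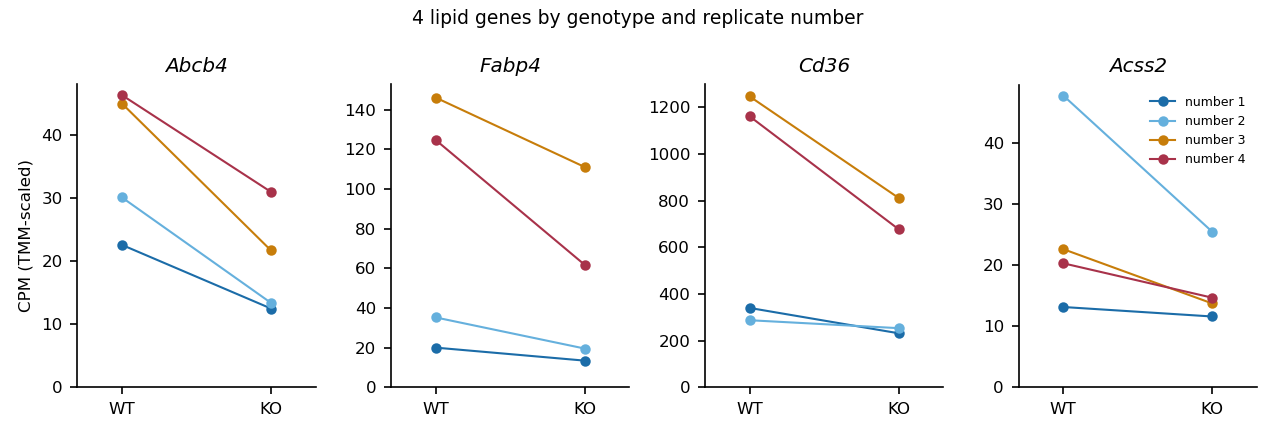
CPM (vertical axes from 0) of Abcb4, Fabp4, Cd36 and Acss2 in WT and KO, with 1 line for each replicate number. All 4 lines fall from WT to KO for each gene, and for Fabp4 and Cd36 numbers 3 and 4 lie far above numbers 1 and 2.

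Across all members, 2 of 33 were lower in KO in all 4 numbers (Abcb4 and Fabp4), against 8.26% of genes tested. Higher in KO in all 4 numbers were 2 of 33, against 9.52% of genes. These were Mvk and Pmvk, the kinases that phosphorylate mevalonate in succession. The log2 differences of Pmvk within numbers 1 to 4 were 0.18, 0.01, 0.42 and 0.02, so it was nearly level in numbers 2 and 4. Neither count of members was above the share of all genes. In 0 of 33 members did the 4 KO libraries all lie below or all lie above the 4 WT libraries, against 0.435% and 0.35% of genes.

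Among the 16 measured synthesis enzymes 11 had a log2 fold change above 0 and 5 below, with a median of 0.06, and 0 passed with or without the block. With genotype alone, single estimates ran from -0.18 for Hsd17b7 to 0.24 for Mvk. Mvk was at 11.8, 13.8, 8.93 and 9.54 CPM in WT and 15.9, 16.3, 9.68 and 10.3 CPM in KO, with a blocked log2 fold change of 0.22 (SE 0.12, edgeR adjusted p = 0.592). Its genotypes overlapped. Sqle, the squalene epoxidase, was at 34.6, 19.7, 44.3 and 38.5 CPM in WT and 35.2, 15.3, 39.6 and 41.2 CPM in KO. The low values were those of number 2 in both genotypes, and the blocked log2 fold change was -0.09 (SE 0.10). Cyp51, the lanosterol demethylase, had -0.18 (SE 0.11) and Fdft1, squalene synthase, 0.14 (SE 0.11). In the RefSeq annotation Fdft1 overlaps the cathepsin gene Ctsb, which was at 6442 CPM or more in every library. Srebf1 overlaps Rai1, Nr1h3 overlaps Acp2 and Abcb4 overlaps non-coding genes, and whether the counting used strand is unknown here, so these values are uncertain to that extent.

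Of the 6 genes of SREBP control and sterol transport, 4 had a log2 fold change above 0 and 2 below (median 0.03). Scap was at 102, 120, 69.4 and 73.5 CPM in WT and 127, 120, 82.2 and 84.8 CPM in KO. The KO library was the higher of the pair in numbers 1, 3 and 4 and level with WT in number 2, and the blocked log2 fold change of KO over WT was 0.19 with an SE of 0.08 (edgeR adjusted p = 0.489). Srebf2, the SREBP that favours cholesterol genes, had a blocked value of 0.00 (SE 0.08), with 199 ± 38.0 CPM in WT and 201 ± 42.7 CPM in KO. Srebf1, which favours fatty acid genes and is itself an LXR target, had 0.14 (SE 0.09). Insig1 and Insig2 had 0.04 (SE 0.09) and -0.14 (SE 0.10). Stard4, a cytosolic sterol carrier, had -0.10 (SE 0.11).

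Fasn, the fatty acid synthase, was at 369, 152, 185 and 228 CPM in WT and 384, 113, 174 and 201 CPM in KO. Number 1 was highest and number 2 lowest in both genotypes, and the blocked log2 fold change of KO over WT was -0.16 with an SE of 0.09 (edgeR adjusted p = 0.603). Scd1 and Scd2 are desaturases that put the double bond into stearate, and they are close paralogs, so reads common to both make either value uncertain. Scd2 was at 365 ± 135 CPM in WT and 381 ± 147 CPM in KO (blocked 0.05, SE 0.08), and Scd1 at 9.47 ± 3.93 and 11.8 ± 5.67 CPM (blocked 0.27, SE 0.14).

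In the LXR and export group 3 of 7 genes had a log2 fold change above 0 and 4 below (median -0.09), and Abcb4 was the 1 called. Abca1, which loads lipid onto apolipoproteins, was at 410, 219, 552 and 530 CPM in WT and 324, 235, 478 and 469 CPM in KO. KO was lower in numbers 1, 3 and 4 and higher in number 2, and the blocked log2 fold change of KO over WT was -0.16 with an SE of 0.09 (edgeR adjusted p = 0.596). Abcg1, which passes sterol to lipoprotein particles, was at 343, 284, 303 and 421 CPM in WT and 378, 273, 400 and 391 CPM in KO (blocked 0.09, SE 0.09). Apoe was at 13243, 20451, 10127 and 12299 CPM in WT and 17307, 19946, 17486 and 11699 CPM in KO. The log2 differences within numbers 1 to 4 were 0.39, -0.04, 0.79 and -0.07, and the blocked value was 0.27 (SE 0.14, edgeR adjusted p = 0.571). The receptors Nr1h3 and Nr1h2 had -0.08 (SE 0.10) and 0.10 (SE 0.09), and Mylip, which targets lipoprotein receptors for degradation, had -0.09 (SE 0.09).

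**Figure D3:**
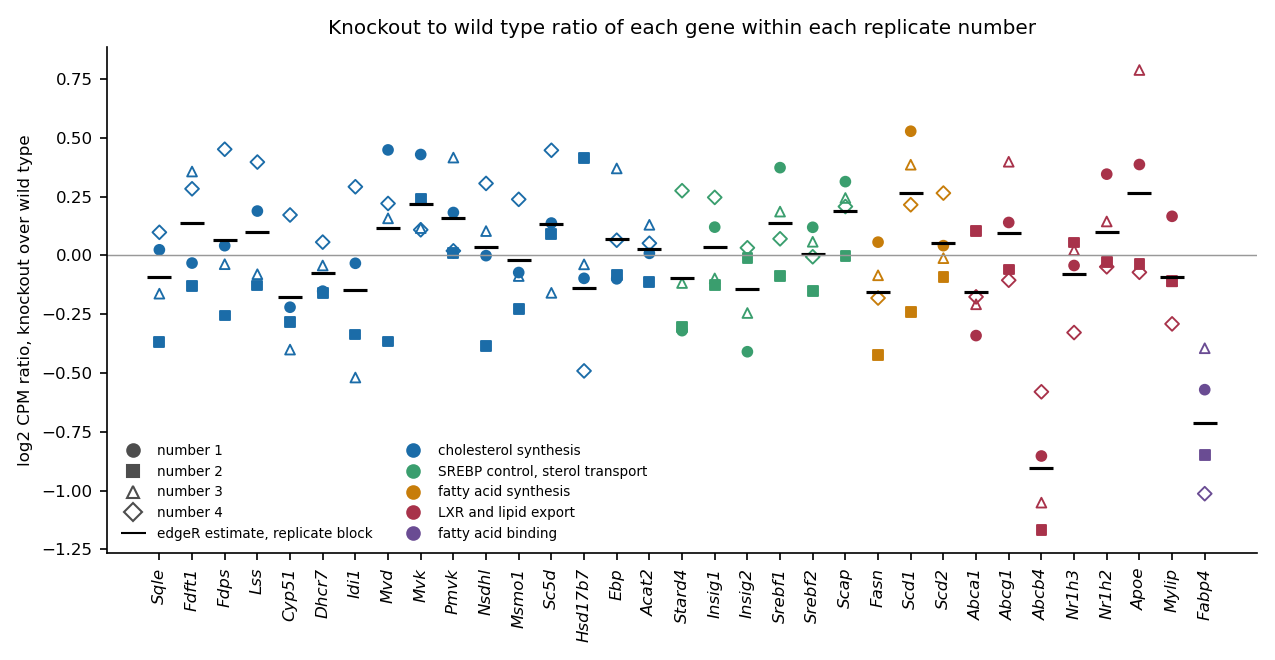
Log2 CPM ratio of KO over WT (vertical axis) for each of 33 genes, with 1 symbol for each replicate number, colours for the groups, and a black dash for the edgeR estimate with the replicate block. Abcb4 and Fabp4 are the members with all 4 symbols well below 0, and for most others the symbols lie on both sides of 0.

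Synthesis was set against export within each number by the difference of the 2 groups' median log2 ratios. The synthesis median was 0.00, -0.15, -0.04 and 0.20 in numbers 1 to 4, and the LXR and export median 0.14, -0.04, 0.02 and -0.18. The difference was therefore -0.14, -0.11, -0.06 and 0.37, below 0 in numbers 1 to 3 and above 0 in number 4. The SD of the 4 within-number differences was 0.24. From the fit with genotype alone the difference of medians was 0.15. That value is not the mean of the within-number differences, so their SD is not its error. In number 4, 15 of 16 synthesis genes were higher in KO, where 50.1% of all genes tested were higher, and in number 2 it was 4 of 16. The direction of the synthesis group thus differed between numbers.

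Other genes of these pathways, from lists chosen with earlier results of the data known, were not called by edgeR with or without the block: 0 of 9 other sterol enzymes, 0 of 9 genes of SREBP processing, 0 of 14 other fatty acid genes, 0 of 23 genes of LXR and sterol handling and 0 of 9 tested PPAR targets. Nearest to the threshold was Cd36, a scavenger receptor and fatty acid importer, at 340, 288, 1246 and 1161 CPM in WT and 232, 254, 811 and 677 CPM in KO. It was lower in KO within each number (blocked log2 fold change -0.53, SE 0.10, edgeR adjusted p = 0.0879, DESeq2 adjusted p = 0.0002913). Acss2, which makes acetyl-CoA from acetate, was at 13.1, 47.7, 22.6 and 20.3 CPM in WT and 11.6, 25.4, 13.7 and 14.7 CPM in KO. Its blocked log2 fold change of KO over WT was -0.60 with an SE of 0.12 (edgeR adjusted p = 0.126, DESeq2 adjusted p = 0.0201). Lpl, lipoprotein lipase, had -0.24 (SE 0.10), Mid1ip1, an activator of acetyl-CoA carboxylase, 0.33 (SE 0.11), and Lbr, a sterol reductase of the nuclear envelope, 0.26 (SE 0.12). None of these 3 passed.

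The members also varied with the replicate number, and number 2 stood out. In 17 of 33 members, WT 2 and KO 2 were the lowest of the 8 libraries, against 17.7% of all genes tested. These were 10 of the 16 synthesis enzymes, Stard4, Insig1, Fasn, Scd1, Scd2, Abca1 and Abcg1. Summed over the 16 synthesis enzymes, the level was 331 CPM in WT 2 and 297 CPM in KO 2, while the other 6 libraries had 407 to 467 CPM. Hsd17b7 was at 1.03 and 1.37 CPM in WT 2 and KO 2 and at 3.61 to 5.07 CPM in the others. The summed level of Abca1 and Abcg1 was also lowest in number 2, at 503 and 508 CPM against 701 to 952 CPM, so genes of synthesis and of export were low in the same libraries. Apoe, Nr1h2 and the synthesis enzyme Ebp were highest there, with Ebp at 42.1 and 39.8 CPM against 27.1 to 36.6 CPM and Nr1h2 at 150 and 147 CPM against 74.6 to 116 CPM. WT 1 and KO 1 were the highest of the 8 for 8 of 33 members, Fasn and Scd2 among them, against 14.6% of genes.

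Between the number sets, 7 of 33 members were higher in all 4 libraries of numbers 3 and 4 than in all 4 of numbers 1 and 2, against 25.1% of genes, and 6 of 33 were lower, against 24.4%. These shares were near those of all genes. The higher members were Sqle, Cyp51, Msmo1, Insig2, Abca1, Nr1h3 and Fabp4. Fabp4 had the largest log2 difference at 2.34, followed by Msmo1, a sterol methyl oxidase, at 1.52 (13.2 to 19.2 CPM against 43.0 to 50.7 CPM). The lower members were Mvd, Mvk, Srebf1, Srebf2, Scap and Nr1h2, with Srebf1 at -0.81. In addition to the Y-linked gene above, markers of other cell types differed between the sets. The 10 stromal markers summed to 292 to 411 CPM in numbers 1 and 2 and 176 to 209 CPM in numbers 3 and 4, but Lox went against the sum of the other 9. Without Lox the sum was 2.42 to 7.47 CPM in numbers 1 and 2. In numbers 3 and 4 it was 9.67 and 37.2 CPM in WT and 59.4 and 70.4 CPM in KO. Lox alone was at 285 CPM or more in the former and at most 171 CPM in the latter. The 4 endothelial markers summed to 19.8 to 34.3 CPM in numbers 1 and 2 and 39.5 to 63.2 CPM in numbers 3 and 4, and the 4 B cell markers to 42.3 to 54.0 CPM and 27.0 to 32.0 CPM. The 1 mast cell marker found was at 0.127 CPM or less and at 0.470 to 0.844 CPM, while the neutrophil, adipocyte and macrophage sums overlapped between the sets. Between genotypes the sums of all 7 marker lists overlapped, though some were shifted. Neutrophil markers summed to 10.2 to 31.9 CPM in WT and 22.3 to 55.5 CPM in KO. Endothelial markers summed to 19.8 to 40.1 CPM in WT and 27.2 to 63.2 CPM in KO, and B cell markers to 28.2 to 54.0 CPM and 27.0 to 52.5 CPM. The part of these differences in the members' levels was not tested. In such bulk samples fewer cells of a type and less RNA per cell cannot be told apart.

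**Figure D4:**
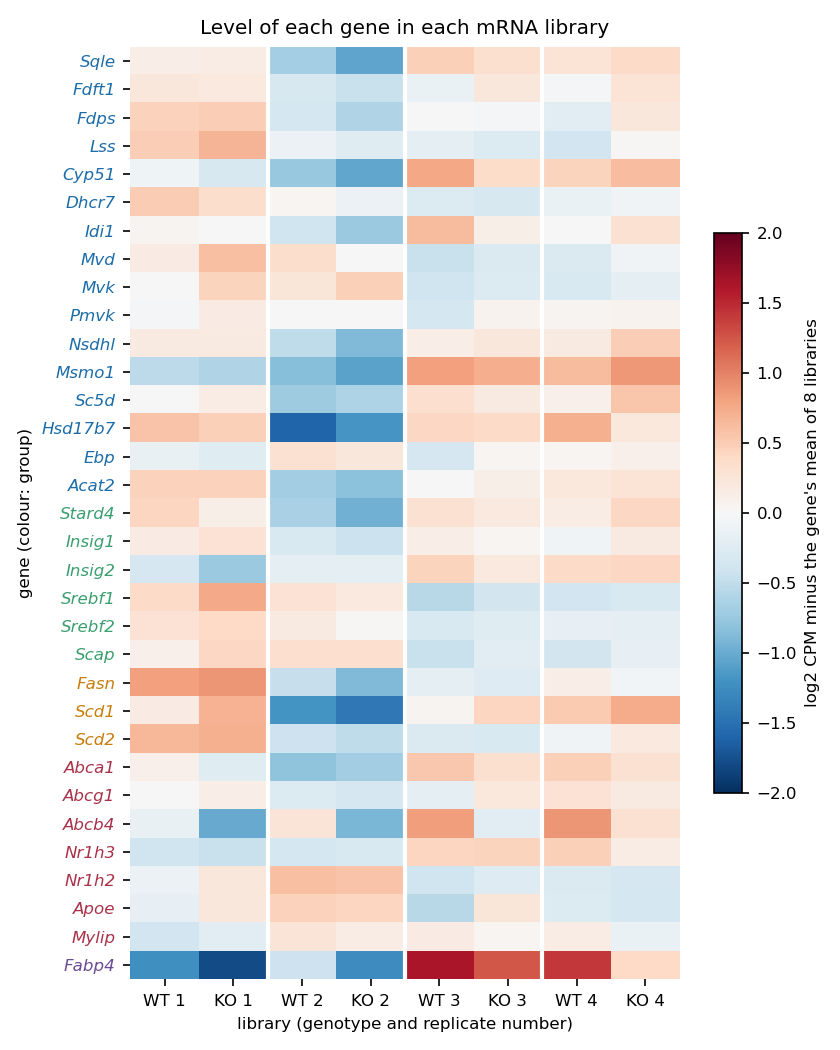
Log2 CPM of 33 genes minus the gene's mean over the 8 mRNA libraries (colour scale), with WT and KO of each replicate number side by side. The columns of number 2 are blue for most synthesis genes and for Fasn, Scd1 and Scd2, and Fabp4 is red in numbers 3 and 4.

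AGO2 is the protein that miRNAs guide to messages. In PAR-CLIP, crosslinked 4-thiouridine is read as a T-to-C conversion, and overlapping reads are merged into groups. The deposited tables hold 22109 groups in 3′ UTRs for WT and 17420 for KO, with 1 library each, so no test was possible and intervals cover counting error only. 3′ UTR groups of members numbered 93 in WT, on 19 genes, and 62 in KO, on 14 genes that were all among the 19. The 15 members without a 3′ UTR group in either library included Abcb4, Apoe, Sqle and Srebf1. All of these named genes had groups in coding sequence or introns, with 55 reads in WT and 56 in KO for Abcb4. Apoe had 51 and 96 such reads, Srebf1 99 and 47, and Sqle 6 and 74. Groups of fewer than 5 reads are not listed, so a low level of binding cannot be seen. Members took 1.13% of 3′ UTR group reads in WT (exact 95% interval 1.11 to 1.15%) and 0.785% in KO (0.771 to 0.800%).

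The reads came mainly from 3 genes. Scd2 had 11750 reads in WT and 6007 in KO, Mylip 4572 and 3884, and Abca1 1807 and 1128, and Scd2 ranked 9 of 6058 genes in WT and 15 of 5559 in KO. The letters below show the group with most reads of Scd2 and of Mylip and the sites that the later counts turn on. Each is a stretch of at most 30 bases from the deposited group sequence on the RNA strand, written as DNA with mm9 positions as the tables give them, and capitals mark the match to bases 2 to 8 of the miRNA named, or to bases 2 to 7 followed by an A.
Scd2, chr19:44380932-44380961, plus strand, 2 sites for miR-27: aatACTGTGActcagtattCTGTGAAactg
Mylip, chr13:45507108-45507137, plus strand, the miR-17 family: gcctacactgtCACTTTActgagatttctg
Abca1, chr4:53046656-53046685, minus strand, 3 matches to miR-33 in 2 separate sites, the first of which holds overlapping matches: ctattCAATGCAATGCActtCAATGCAAcg
Abca1, chr4:53043837-53043866, minus strand, miR-148a: aatggatctattttTGCACTGgaatatctg
Abca1, chr4:53044338-53044367, minus strand, miR-27: aaaacttactaACTGTGAAtatgagaaaga
Abca1, chr4:53046545-53046574, minus strand, miR-23a: ttcattaccttatacagATGTGAAactctg
Abcg1, chr17:31252116-31252144, plus strand, let-7a: ttcatgaatcacattaaCTACCTCcaccg
Abcg1, chr17:31251927-31251956, plus strand, miR-33: cagcagggactaacgcaacgCAATGCAAcg
Msmo1, chr8:67197269-67197297, minus strand, miR-27: accaggttaggactattctttCTGTGAAg
Lss, chr10:76017836-76017861, plus strand, miR-23a: ttaactatgATGTGAAcctcaacacg

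The miRNAs themselves, as RefSeq gives their mature sequence, are shown with the seed (bases 2 to 8) in capitals. miR-27a-3p and miR-27b-3p share a seed.
miR-27a-3p: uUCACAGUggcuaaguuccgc
miR-27b-3p: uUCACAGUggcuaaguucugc
miR-33-5p: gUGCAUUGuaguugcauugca
miR-23a-3p: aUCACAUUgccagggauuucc
miR-148a-3p: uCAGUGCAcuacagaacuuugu
miR-17-5p: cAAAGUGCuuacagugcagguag
let-7a-5p: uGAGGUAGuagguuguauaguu

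The Scd2 group with 2 miR-27 sites, the first of which overlaps matches to miR-128 and miR-144, held 8471 reads in WT and 4469 in KO. Expressed as a share of all 3′ UTR group reads, the KO over WT ratio was 0.616 (exact interval 0.594 to 0.639). The next Scd2 groups, with no match to the miRNAs searched, had ratios of 0.656 (1499 and 841 reads) and 0.424 (1424 and 517 reads). The Mylip group with the miR-17 family match, at 3911 and 3502 reads, had a ratio of 1.05 (0.999 to 1.10), an interval that includes 1. Other Mylip groups with at least 50 reads in WT and KO together had ratios from 0.159 (44 and 6 reads) to 2.26 (61 and 118 reads), so the gene's ratio of 0.993 (0.951 to 1.04) covers unlike groups.

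Along the Abca1 3′ UTR the ratios differed between groups beyond their counting intervals. The group with the miR-148a match, which overlaps matches to miR-130a, miR-301a and miR-19b, held 484 reads in WT and 72 in KO, a ratio of 0.174 (0.134 to 0.223). The group with the miR-33 sites, which also holds matches to miR-144 and miR-223, had 177 and 83 reads (ratio 0.548, 0.417 to 0.715), and in KO it stopped short of the last of the sites shown. That with the miR-23a match held 463 and 257 reads (0.649) and that with the miR-27 match 261 and 168 (0.752, 0.616 to 0.917). A further group with no match to the miRNAs searched held 261 and 383 reads, a ratio of 1.71 (1.46 to 2.01). A small pair, also without a match, held 14 reads in WT (53046142 to 53046170) and 37 in KO (53046117 to 53046149). Its ratio was 3.09 (1.63 to 6.18), but the paired groups overlapped only in part, so it compares stretches that are mostly not shared. In Abcg1 the let-7a group went from 146 reads in WT to 23 in KO (ratio 0.184), and the group with the miR-33 match had 23 reads, with no conversion, and was listed in WT alone. The Lss group had a ratio of 0.455 (190 and 74 reads) and the Msmo1 group one of 0.644 (225 and 124 reads).

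**Figure D5:**
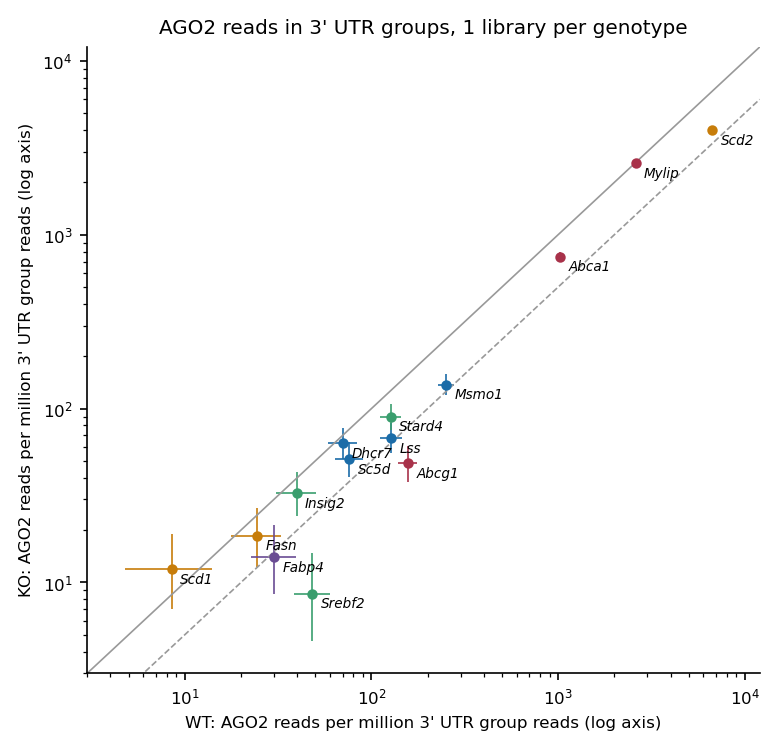
Share of AGO2 3′ UTR group reads, in RPM, in WT (horizontal log axis) and KO (vertical log axis) for the 14 genes with groups in both, with exact 95% counting intervals, a solid line for equal shares and a dashed line for a share 2-fold lower in KO. Scd2, Mylip and Abca1 hold most reads, and Abcg1, Srebf2 and Fabp4 lie below the dashed line.

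Taken per gene, 13 members had 50 or more 3′ UTR reads in both libraries together. The share was lower in KO in 13 of 13, against 59.9% of the 4036 genes of that depth, with a median log2 ratio of -0.57 against -0.19. The counting interval lay below 1 for 9 and included 1 for 4 (Dhcr7, Insig2, Fasn and Mylip). The share was at least 2-fold lower for 3 of 13 (Srebf2, Abcg1 and Fabp4), against 20.7% of genes, and at least 2-fold higher for 0 of 13, against 12.3%. Groups matched 1 to 1 between the libraries, by any overlap on the same strand, gave a less even picture. Of 26 member pairs, 20 were lower in KO, against 58.0% of 5280 pairs. At least 2-fold lower were 9 of 26, against 21.8%, and at least 2-fold higher 2 of 26, against 15.7%. The higher ones were 1 pair of Mylip and the Abca1 pair above whose groups overlapped only in part. In KO the 13 reads of Srebf2 and the 21 of Fabp4 held no conversion. With a single library per genotype, spread between repeats cannot be measured for any of these ratios.

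The mRNA values are set beside the AGO2 ratios for the 13 members of 50 or more reads. With genotype alone none of them passed. The labels give the PAR-CLIP libraries no replicate number. Member mRNA differed between the number sets, with log2 differences of 2.34 for Fabp4, 1.52 for Msmo1 and -0.44 for Srebf2. These pairs of values therefore do not show whether AGO2 binding per message changed. For Abcg1 the AGO2 log2 ratio was -1.69 and the mRNA log2 fold change with genotype alone 0.09. For Srebf2 the values were -2.48 and 0.01, for Scd2 -0.74 and 0.06, for Lss -0.91 and 0.11, and for Msmo1 -0.87 and 0.02. For Fabp4 they were -1.11 and -0.66, where the mRNA value was -0.21 without WT 3 and -1.37 without KO 3. For Mylip the AGO2 log2 ratio was -0.011 and the mRNA value -0.10. Abca1 had -0.46 and -0.18, Stard4 -0.50 and -0.09, and Fasn -0.39 and -0.10. Insig2 had -0.29 and -0.13, Dhcr7 -0.16 and -0.09, and Sc5d -0.57 and 0.14.

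Matches to miR-27 lay in groups that held 45.0% of member reads in WT and 40.2% in KO, against 17.1% and 12.9% of all 3′ UTR group reads. This was mainly the 1 Scd2 group, since only 3 of 93 member groups in WT held a match (3.23%, against 3.09% of all groups). A miR-33 match was found in 2 of 93 member groups (2.15%), those of Abca1 and Abcg1, against 0.289% of all groups, and in KO in 1 of 62. miR-33-5p is encoded within an intron of Srebf2 and is known to target both exporters. The AU-rich pentamer ATTTA, a core of known ELAVL1 and decay elements, was in 5 of 93 member groups (5.38%, against 7.48% of all groups) and TTTTT in 16 of 93 (17.2%, against 11.0%). In KO, ATTTA was in 4 of 62 (6.45%, against 6.33%) and TTTTT in 12 of 62 (19.4%, against 9.83%).

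In the small RNA libraries miR-33-5p was scarce, at 11.3 and 16.6 CPM in WT 1 and 2 and 19.7 and 14.4 CPM in KO 3 and 4. miR-27b-3p was at 11759, 12052, 11754 and 12051 CPM and miR-27a-3p at 5754, 5745, 5124 and 5306 CPM in the same order. miR-23a-3p was at 7024, 5593, 4199 and 7508 CPM, and miR-148a-3p at 574, 461, 573 and 483 CPM. For miR-33-5p, miR-23a-3p and miR-148a-3p the WT and KO values overlapped, and miR-27a-3p was lower in both KO libraries. In these libraries genotype and number set cannot be told apart, and a header in the data of KO 4 also names KO 2.

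The RefSeq promoter table (GRCm38.p6, 250 bases before to 50 after the gene start) held 26 of the 34 members. On either strand, the NF-Y letters CCAAT were in 20 of 26 (76.9%, against 41.1% of genes in the table) and the SP1 letters GGGCGG in 21 of 26 (80.8%, against 38.2%). NF-Y and SP1 are known partners of SREBP. The genes of the table were not limited to expressed ones, and Abcb4 and Mylip of the LXR and export group held both motifs. A tie of these motifs to SREBP was not tested. The sterol response letters TCACNCCAC were in 1 of 26, Hmgcs1 (3.85%, against 1.44% of genes). An exact direct repeat of AGGTCA with a gap of 4 bases, the LXR type, was in 0 of 26, against 4 of 27025 genes (0.015%). So strict a match is too rare for its absence here to describe the members. A match or its absence describes these windows only.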

How the data were processed

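The authors deposited, per the file headers, read counts and RPKM for each gene of each mRNA library, read counts of mature miRNAs for each small RNA library, and read and conversion counts of AGO2 PAR-CLIP groups with position, sequence, class and gene name. Per the submitters' processing notes, Bowtie 0.12.7, CASAVA 1.8.2 and mm9 were used. How genes were counted, with which annotation and with strand or not, is not given in the sources used here. Whether group positions count from 0 or 1 was not settled.

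The 34 members and the other lists were chosen with earlier results of these data known. All are named, with up to 3 genes of each other list by smallest p of the blocked fit. Identifiers were matched to symbols for 19328 of 21444 genes. Counts were tested with edgeR 4.0.16 (R 4.3.3; TMM, filterByExpr, quasi-likelihood, genotype alone, Benjamini-Hochberg over 14019 genes), and CPM are TMM-scaled except for miRNAs. Fits were tested on simulated data. DESeq2 1.42.0, other scalings, no filter, a replicate block, a number set term and fits without single libraries were alternatives. Deviations from genotype means correlated at 0.812, 0.843, 0.762 and 0.820 for equal numbers 1 to 4, so the numbers were taken to pair the libraries, though WT 4 and KO 3 correlated at 0.850. RPKM served only to order genes by level. Ratios of PAR-CLIP reads are of shares of 3′ UTR group reads, with exact binomial (Clopper-Pearson) intervals at 95%, and reads carry no molecular identifiers. Seed matches were searched for 28 of 30 listed miRNAs. Not searched were miR-185-5p and miR-142-3p, whose mature sequences were not found under these names. The level of miR-142-3p was 6919 to 11764 CPM, so a group without a match may hold a site for it. Small RNA totals were 6886110 to 10265453 counts, and PAR-CLIP groups held 6287870 reads in WT and 6445262 in KO.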

Additional observations from a re-analysis of the deposited data

Results flagged for a closer look

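In 2 of 66 groups of 4 libraries, 1 library lay far from the other 3 by Dixon's ratio (the gap to the nearest library over the whole range), a rule by which chance marks about 1 group in 20. Fdft1 was at 12.6 CPM in KO 2 and at 19.7 to 20.8 CPM in the other KO libraries (ratio 0.874). Nsdhl, a sterol dehydrogenase gene, was at 8.12 CPM in WT 2 and at 12.6 to 13.0 CPM in the other WT libraries (ratio 0.905). Both are libraries of number 2, in which 17 of 33 members were at their lowest in both genotypes.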

How the results depend on the processing

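The number of genes called depended on the design. It was 0 with genotype alone, 3 with DESeq2, 5 with the replicate block, 1 with the number set term, 14 with numbers 3 and 4 alone and 82 with DESeq2 and the replicate block. With the replicate block it was 4, 29, 7 and 3 without numbers 1, 2, 3 and 4. Members called were 0 with genotype alone, 1 with the replicate block, 2 with DESeq2 and the block, and 0, 1, 2 and 1 with the replicate block without numbers 1, 2, 3 and 4. The block changed no other member's call. Without 1 library 0 genes and 0 members were called.

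The synthesis median was -0.085 with numbers 1 and 2 alone. Leaving out 1 library moved the fatty acid median from -0.21 to 0.35, the synthesis median from -0.08 to 0.17, the LXR and export median from -0.21 to 0.03 and the synthesis minus export difference from -0.11 to 0.33. In 22 of 33 members the log2 fold change changed sign under some alternative. By leaving out 1 library it ranged from -0.26 to 0.17 for Sqle, -0.10 to 0.25 for Fdps, -0.15 to 0.32 for Lss, -0.42 to 0.10 for Cyp51, -0.24 to 0.10 for Dhcr7, -0.29 to 0.073 for Idi1, -0.10 to 0.27 for Mvd, -0.11 to 0.28 for Nsdhl, -0.30 to 0.31 for Msmo1, -0.044 to 0.32 for Sc5d, -0.48 to 0.081 for Hsd17b7, -0.035 to 0.18 for Ebp, -0.27 to 0.13 for Stard4, -0.049 to 0.17 for Insig1, -0.31 to 0.038 for Insig2, -0.13 to 0.31 for Srebf1, -0.15 to 0.11 for Srebf2, -0.15 to 0.24 for Acat2, -0.52 to 0.21 for Fasn, -0.21 to 0.35 for Scd2, -0.28 to 0.064 for Nr1h3 and -0.11 to 0.36 for Nr1h2. These fits held no block and unbalanced the numbers. Msmo1 was -0.0205 with the replicate block and -0.0343 with the number set term, and Srebf2 0.00 (-0.0013) with library totals alone. The cause was not tested.

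With at least 20 reads per group, 12 members had a 3′ UTR group in WT, and member shares of reads were 1.20% in WT and 0.828% in KO. Over all annotation classes, 26 members had a group in KO, and the shares were 0.333% and 0.200%. In every one of these alternatives the share was lower in KO. Much of the member share was Scd2, with 11750 of 19894 member 3′ UTR reads in WT and 6007 of 11837 in KO. Ordering by CPM in place of RPKM kept 4 of the 5 highest genes and moved 16 of 33 by 5 or more ranks.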
